A study of Mus musculus with 9 samples.

Results

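The 10 transcription factors described here, Trp63, Klf4, Grhl1, Grhl3, Ovol1, Gata3, Cebpa, Cebpb, Hopx and Tfap2a, are regulators of keratinocyte differentiation, taken from a list of symbols. They were read by every probe set that the platform annotation assigns to exactly 1 gene and whose symbol is in that list, which found all 10 among 18193 genes and 19 probe sets for them, of 34945 with 1 symbol and 45037 in the whole table. The mutant mice, labelled Alox12b fl/fl Cre (genotype p/p +/cre, called Cre mice here), were homozygous for a LoxP-flanked Alox12b allele and carried a Cre-ERT2 recombinase under the cytokeratin K14 promoter, which is active in basal keratinocytes and is switched on by tamoxifen. Their controls, labelled Alox12b fl/fl (genotype p/p +/+), were floxed littermates with no Cre. All mice had the hairless SKH1 background after 5 generations of backcrossing, were 8 weeks old and received 3 intraperitoneal injections of 1 mg tamoxifen, and epidermis scratched from frozen skin was taken 6 days later. Alox12b encodes an epidermal lipoxygenase that oxidises linoleate in barrier ceramides, and the comparison asks what its induced inactivation in adult keratinocytes does to the epidermal transcriptome. There were 5 Cre arrays and 4 control arrays, which the labels call biological replicates. No control carried Cre, so an effect of the recombinase itself and one of Alox12b inactivation cannot be told apart.

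Stratified epidermis renews itself from a basal layer whose daughters stop dividing, pass through spinous and granular layers and end as cornified cells. p63, the product of Trp63, holds the basal, stratified epithelial state. AP-2 alpha (Tfap2a) acts with it in basal cells. Ovol1 represses growth genes as cells leave the basal layer, C/EBP alpha and C/EBP beta act in suprabasal cells, and Klf4, Grhl1, Grhl3 and Gata3 are needed for terminal differentiation or for the skin barrier in mice. Hopx is a small homeodomain protein that does not itself bind DNA and is found both in differentiating keratinocytes and in hair follicle stem cells.

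Values are log2 intensities as deposited, with array medians of 4.34 to 4.39 in the Cre group and 4.38 to 4.42 in the controls. The number of arrays limits the precision. A probe set was called where limma, a linear model fitted to all 45037 probe sets, gave a Benjamini-Hochberg adjusted p under 0.05. The labels give no sex. Xist and Y-linked probe sets split the arrays into 3 female and 2 male Cre mice and 1 female and 3 male controls. The keratinocyte genes Krt5, Krt14, Krt1, Krt10 and Lor had mean levels of 12.19 to 13.31 in the Cre group and 12.26 to 13.49 in the controls. These levels show keratinocyte RNA but not the absence of dermis. The fibroblast gene Col1a2 read 11.58 in Cre and 12.88 in control epidermis, and all 9 measured fibroblast markers were lower in Cre epidermis. The part of dermal RNA in the factors' differences was not tested. Alox12b itself lay at 9.89 ± 0.29 (SD, n = 5) in the Cre group and 9.28 ± 0.10 (SD, n = 4) in the controls on its single probe set, higher in Cre epidermis by 0.61 with no overlap (limma adjusted p = 0.00694). The position of that probe set relative to the deleted part is not given in the sources used here, so it checks nothing about the deletion.

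The promoters of Grhl3, Hopx and Gata3 are shown because the first pair moved up together and Gata3 moved down. RefSeq start sites on GRCm38.p6 gave 11 windows of 250 bases upstream of a start, for 8 of the 10 factors, all but Trp63 and Ovol1. The printed windows, all on the minus strand and 5′ to 3′ up to the base before the start, are chr4:135573633-135573882 for Grhl3, chr2:9878601-9878850 for Gata3, and chr5:77115124-77115373 and chr5:77095268-77095517 for the distal and the proximal start of Hopx. Capitals mark CACCC, the core of Klf-type sites, and GCCNNNGGC, the core of AP-2 sites, on either strand.
Grhl3: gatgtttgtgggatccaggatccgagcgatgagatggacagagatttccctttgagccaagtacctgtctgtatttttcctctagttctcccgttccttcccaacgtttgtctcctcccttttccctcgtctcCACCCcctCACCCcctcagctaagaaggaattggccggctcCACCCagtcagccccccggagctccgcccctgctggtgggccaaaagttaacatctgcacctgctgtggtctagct
Gata3: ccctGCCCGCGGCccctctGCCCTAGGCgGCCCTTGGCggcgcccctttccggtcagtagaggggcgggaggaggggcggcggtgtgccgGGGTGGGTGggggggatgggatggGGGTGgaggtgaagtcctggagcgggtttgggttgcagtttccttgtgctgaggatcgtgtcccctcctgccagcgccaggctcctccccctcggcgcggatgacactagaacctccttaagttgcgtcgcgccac
Hopx distal start: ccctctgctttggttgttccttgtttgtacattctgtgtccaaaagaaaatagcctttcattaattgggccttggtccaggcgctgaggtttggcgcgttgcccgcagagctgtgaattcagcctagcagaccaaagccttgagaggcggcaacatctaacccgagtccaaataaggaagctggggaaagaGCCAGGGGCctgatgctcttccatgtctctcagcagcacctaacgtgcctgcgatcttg
Hopx proximal start: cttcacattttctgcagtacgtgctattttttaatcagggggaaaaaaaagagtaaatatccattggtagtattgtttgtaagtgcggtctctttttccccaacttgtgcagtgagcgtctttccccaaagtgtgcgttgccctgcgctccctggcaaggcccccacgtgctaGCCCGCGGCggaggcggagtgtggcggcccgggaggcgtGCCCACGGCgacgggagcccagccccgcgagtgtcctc

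CACCC occurred 3 times upstream of Grhl3 and 3 times upstream of Gata3, where a pair of the matches overlap each other, and in neither Hopx window. GCCNNNGGC occurred 3 times upstream of Gata3, once in the distal and 2 times in the proximal Hopx window, and not upstream of Grhl3. The matches of these motifs did not overlap each other in the printed windows. Over all 11 windows of the factors, 6 held CACCC and 5 held GCCNNNGGC, against 52% and 13.7% of 32851 windows of the same length genome-wide. GC content of the factors' windows ran from 47.6% to 81.6%, with a median of 52.4% over all windows. AACCNGTT for Grhl factors, TTGCNNAA for C/EBP factors, AGATAA for GATA factors and CCGTTA for Ovol factors, each searched on both strands, were not among the letters of these 11 windows, and 1.79%, 9.56%, 9.99% and 2.18% of all windows held them. These matches are letters in a window and say nothing of binding.

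Of the 10 factors, each taken at its probe set with the highest mean, 5 rose in Cre epidermis (Grhl3, Ovol1, Hopx, Klf4 and Cebpb), 2 fell (Gata3 and Trp63) and 3 did not pass (Grhl1, Cebpa and Tfap2a). Over all 18193 genes, 34.4% passed, 15.5% higher and 18.9% lower. The balance of directions over the whole table turned with the centring of the arrays, with 5698 probe sets higher and 7202 lower as deposited, but 7443 higher and 6342 lower once each array's median was subtracted, where 6 factors were higher and 2 lower. The factors are bright, and among the 1949 genes at or above the lowest factor's mean level 51.9% passed, 26.5% higher and 25.4% lower, so the 7 in 10 are to be read against that share. The counts of listed genes below are to be read against these shares too. A call with a difference of at least 2-fold was made for 2 of the 10, Grhl3 and Gata3, against 5.77% of all genes and 7.85% of the equally bright ones. The median difference over the 10 factors was 0.35 on the log2 scale, against 0.03 over all genes, and the median absolute difference was 0.42, against 0.21. These medians were not matched for brightness, so they do not show that the factors differed more than equally bright genes. Over the 19 probe sets, 9 were higher, 3 lower and 7 did not pass, where 28.6% of all probe sets passed, 12.7% higher and 16% lower. On 10 of them the groups were apart and 4 were called with at least 2-fold, against 25.7% and 4.48% of all probe sets. The groups did not overlap for 7 of the 10 factors, against 31.6% of all genes and 53.7% of the equally bright ones.

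**Figure D1:**
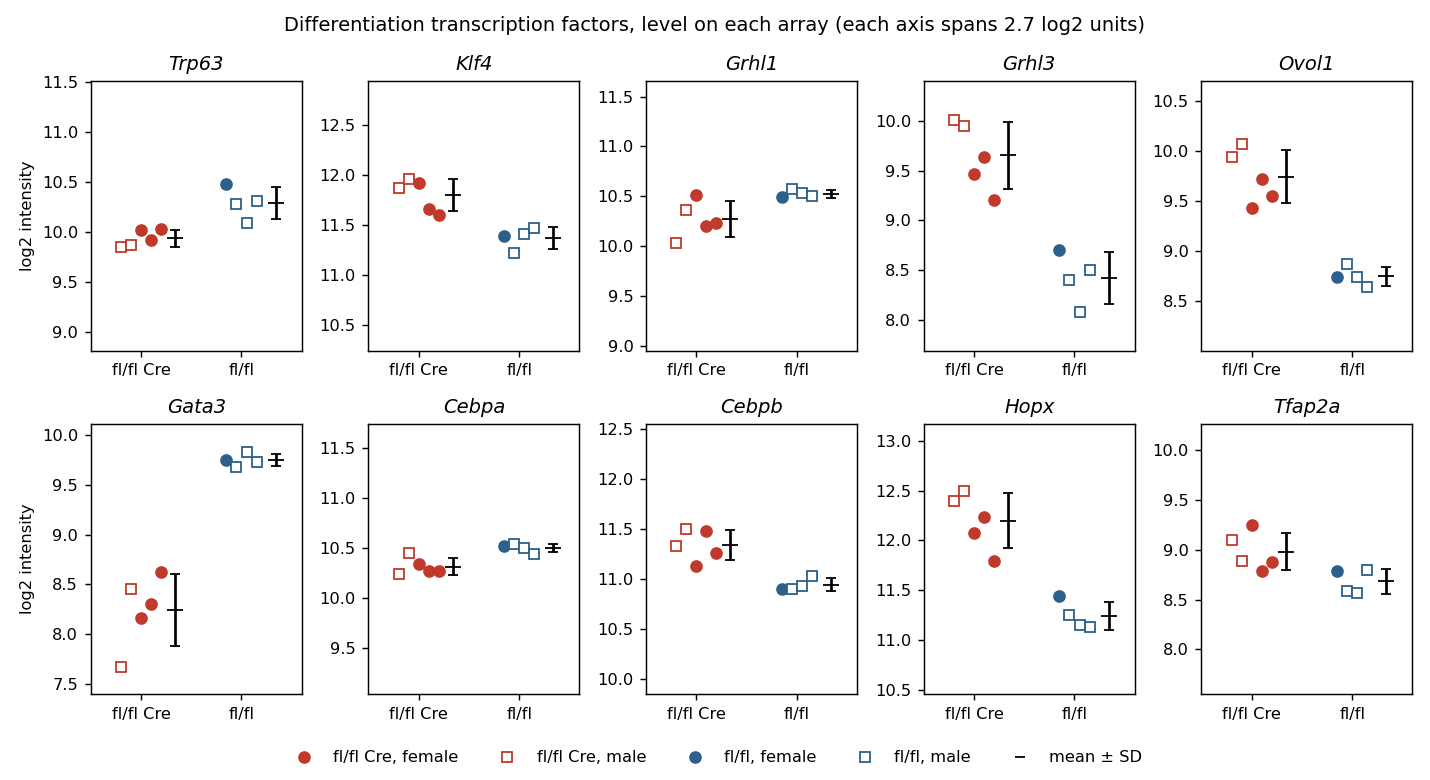
Log2 intensity of the 10 factors on each array, with Cre mice left and controls right in each panel, filled circles for female and open squares for male mice by Xist and Y-linked probe sets, and black bars for the mean ± SD. Grhl3, Ovol1 and Hopx lie above all controls on every Cre array, Gata3 lies below, and Grhl1, Cebpa and Tfap2a overlap.

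Gata3, a zinc-finger factor of suprabasal keratinocytes, of the hair follicle's inner root sheath and of T cells, showed the largest difference of the 10. Its only probe set (1448886_at) read 7.68, 8.45, 8.16, 8.31 and 8.63 in Cre mice 1 to 5, against 9.75, 9.68, 9.83 and 9.73 in control mice 1 to 4. The groups were 1.05 log2 units apart at their nearest, the widest gap of any factor, and the Cre mice varied more than the controls (SD 0.36, n = 5, against 0.06, n = 4). Gata3 fell by 1.50 ± 0.16 (SE), or 2.83-fold (limma adjusted p = 9.06e-05), and 2.37% of all genes had a larger difference in either direction. Agpat5, an acyltransferase gene that Gata3 activates in mouse epidermis, was 8.80 ± 0.36 (SD, n = 5) in Cre and 10.31 ± 0.10 (SD, n = 4) in control epidermis and fell by 1.51 ± 0.16 (limma adjusted p = 9.95e-05).

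Gata3 is also a T cell gene, and some T cell transcripts fell as well. Of 11 measured T cell and innate lymphoid markers, 6 fell, 1 rose and 4 did not pass, with a median difference of -0.70. Their summed linear intensity ran from 748 to 1076 on Cre arrays and from 1539 to 1931 on control arrays. The brightest in controls, and so the heaviest in that sum, were Thy1 at 9.41 and Ptprc at 8.85. Cd3g, a chain of the T cell receptor complex, fell by 2.50 ± 0.17 (limma adjusted p = 7.03e-06), and Thy1, carried by the dendritic epidermal T cells of mice, fell by 1.57 ± 0.16 (limma adjusted p = 6.58e-05). Which cells the Thy1 signal came from was not tested. Cd247 and Cd3d, further receptor chains, fell by 1.13 and by 0.83, with none of 3 further Cd247 probe sets passing. The chain Cd3e differed by only -0.19, did not pass (limma adjusted p = 0.114) and overlapped between groups, so the chains did not fall alike. Cd3g read 5.50 ± 0.37 (SD, n = 5) in Cre epidermis, where array medians were 4.34 to 4.39. It was not compared with a background level, so how much T cell RNA remained cannot be said. The part of these markers in the Gata3 difference was not tested. In bulk epidermis, fewer cells of a type and less RNA per cell cannot be told apart. Of 10 measured inner root sheath and matrix markers, 2 rose (Krt71 and Tchh), 1 fell (Krt73, by 1.03) and 7 did not pass, and their summed intensity was 244 to 711 on Cre and 235 to 264 on control arrays.

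Grhl3, a grainyhead-like factor needed for barrier formation in mouse embryos, rose the most when each gene is read on its brightest probe set. Its probe set (1436932_at) read 10.01, 9.95, 9.47, 9.63 and 9.20 in Cre mice 1 to 5, against 8.71, 8.40, 8.08 and 8.51 in control mice 1 to 4. Every Cre array exceeded every control array, by at least 0.49. The difference was 1.23 ± 0.18 (SE), or 2.34-fold (limma adjusted p = 0.000557).

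Grhl1, its relative that activates desmosomal cadherin genes in mice, did not rise. It read 10.04, 10.37, 10.52, 10.21 and 10.24 in Cre mice, against 10.49, 10.57, 10.53 and 10.50 in controls, so 4 of 5 Cre arrays lay below the controls and 1 lay among them. The difference was -0.25 (95% confidence interval -0.46 to -0.05; limma adjusted p = 0.0674), and it passed after quantile normalization, with an intensity trend, with array weights or without Cre mouse 3 (limma adjusted p of 0.0177 to 0.0414). Grhl2, the third family member, differed by -0.05 (95% confidence interval -0.22 to 0.11; limma adjusted p = 0.629). The change of Grhl3 relative to Grhl1 on the same array was 1.48 log2 units (two-sided exact permutation p = 0.00794, the smallest that 9 arrays allow). Grhl3 alone gave the same permutation p, so the subtraction could not lower it and adds no support of its own.

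Known Grhl targets went in different directions. Tgm1, the transglutaminase that crosslinks the cornified envelope and is bound by Grhl3, rose by 1.23 ± 0.13 to 10.51 ± 0.28 (SD, n = 5) in Cre epidermis, against 9.28 ± 0.06 (SD, n = 4) in controls (limma adjusted p = 8.05e-05). Arhgef19, a gene that Grhl3 activates, fell by 1.15 ± 0.17 (limma adjusted p = 0.000729) at the low levels of 3.74 in Cre and 4.89 in control epidermis. Dsg1a, Cldn4 and Cdh1, which encode junction proteins, differed by -0.29, -0.09 and -0.07 and did not pass. Of these 5 targets, 1 rose, 1 fell and 3 did not pass.

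Ovol1, a zinc-finger repressor that helps progenitors leave the cell cycle, rose on both of its probe sets. The brighter (1419051_at) read 9.94, 10.07, 9.44, 9.72 and 9.55 in Cre mice 1 to 5, against 8.74, 8.87, 8.74 and 8.64 in controls. The groups were 0.56 apart. It rose by 1.00 ± 0.13 (SE), or 1.99-fold (limma adjusted p = 0.000271). The dimmer (1419052_at) rose by 1.43 ± 0.27 (limma adjusted p = 0.00266), with 8.14, 8.62, 6.99, 8.05 and 7.76 in Cre mice against 6.79, 6.38, 6.47 and 6.31 in controls, where Cre mouse 3 came within 0.20 of the nearest control. Of 4 genes that Ovol1 is known to repress in mouse skin, 3 fell and 1 did not pass, where 18.9% of all genes were lower. Whether Ovol1 had a part in this was not tested. Id2, an inhibitor of helix-loop-helix factors, fell by 0.58 ± 0.14 (limma adjusted p = 0.0119), Zeb1, a mesenchymal repressor that fibroblasts also express, by 0.90 ± 0.18 (limma adjusted p = 0.00375), and Ovol2 by 0.44 ± 0.14 (limma adjusted p = 0.0375). None of 3 further Zeb1 probe sets passed. Ovol2 was dim, at 3.16 in Cre and 3.60 in control epidermis, and its groups overlapped. Myc differed by 0.23 (limma adjusted p = 0.304). Beside Zeb1, all 9 measured fibroblast markers fell, with a summed intensity of 9694 to 16447 on Cre and 19525 to 28076 on control arrays. Their part in the Zeb1 difference was not tested.

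Hopx rose on both of its probe sets. The brighter (1428662_a_at) read 12.40, 12.50, 12.07, 12.23 and 11.79 in Cre mice 1 to 5, against 11.44, 11.25, 11.16 and 11.13 in controls. It rose by 0.96 ± 0.14 (SE), or 1.94-fold (limma adjusted p = 0.000551). The dimmer (1451776_s_at) rose by 1.11 ± 0.15, or 2.16-fold (limma adjusted p = 0.000337), with a gap of 0.55 between the groups. Krt15, a keratin of basal and hair follicle stem cells, in which Hopx is also found, fell by 3.22 ± 0.21 (limma adjusted p = 5.01e-06).

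Klf4, the Kruppel-like factor whose loss breaks the epidermal barrier of newborn mice, rose less. It read 11.87, 11.97, 11.92, 11.66 and 11.60 in Cre mice, against 11.39, 11.22, 11.41 and 11.47 in controls, with no overlap on this probe set (1417394_at). It rose by 0.43 ± 0.10 (SE), or 1.35-fold (limma adjusted p = 0.00658). The other probe set (1417395_at) rose by 0.45 ± 0.12 (limma adjusted p = 0.0177), with Cre mouse 5 at 11.38 and control mouse 4 at 11.39, and did not pass after quantile normalization (limma adjusted p = 0.0517), without control mouse 2 (0.0528) or without control mouse 3 (0.0533). Rptn, the envelope protein repetin, which rises in newborn mice without Klf4, was 12.30 ± 0.17 (SD, n = 5) in Cre and 9.02 ± 0.50 (SD, n = 4) in control epidermis (difference 3.28 ± 0.20 SE, limma adjusted p = 3.64e-06). Pllp, plasmolipin, which also rises without Klf4, was higher by 0.43 ± 0.09 (limma adjusted p = 0.00537). Of the 4 measured targets listed for Klf4, Gata3 and AP-2, 2 rose, 1 fell and 1 did not pass. Among the other Kruppel-like factors, Klf7 rose by 1.38 ± 0.17 (limma adjusted p = 0.00019), with 3 further probe sets rising too, and Klf3 by 0.24 ± 0.08 (limma adjusted p = 0.041) with overlapping groups and none of 6 further probe sets passing. Klf2, Klf11 and Klf13 fell by 0.67, 0.74 and 0.23. Klf5, expressed in basal keratinocytes, differed by -0.05 (95% confidence interval -0.28 to 0.17).

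The C/EBP factors, leucine-zipper proteins of the suprabasal layers, diverged. Cebpb read 11.33, 11.50, 11.13, 11.49 and 11.26 in Cre mice on its brighter probe set (1418901_at), against 10.90, 10.90, 10.94 and 11.04 in controls, and rose by 0.40 ± 0.09 (SE), or 1.32-fold (limma adjusted p = 0.00664). The groups did not overlap, with 0.10 between them. Its dimmer probe set (1427844_a_at) was higher by 0.30 ± 0.09 (limma adjusted p = 0.0361), with Cre mouse 3 among the controls. That call was lost when any of 7 arrays (Cre mouse 1, 2 or 4, or any control) was left out, with a limma adjusted p of up to 0.0916. It was also lost with the replicate number as a block (limma adjusted p = 0.0808). The same held after quantile normalization (limma adjusted p = 0.05005) and without moderation of the variances (adjusted p = 0.0585 in the unmoderated linear model).

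Cebpa read 10.24, 10.45, 10.35, 10.28 and 10.27 in Cre mice, against 10.52, 10.54, 10.50 and 10.44 in controls, so that Cre mouse 2 overlapped control mouse 4 by 0.01. The difference was -0.19 (95% confidence interval -0.34 to -0.04; limma adjusted p = 0.0612), and it passed in 7 of 22 alternatives, quantile normalization among them (limma adjusted p = 0.017). On the same array, Cebpb minus Cebpa was 1.03 ± 0.16 (SD, n = 5) in Cre and 0.44 ± 0.11 (SD, n = 4) in control epidermis. That is a change of 0.58 (two-sided exact permutation p = 0.00794, the smallest possible). With each gene read as the mean of its probe sets, the change was 0.53 (two-sided exact permutation p = 0.0159). Cebpg, a partner protein of this family, fell by 0.44 ± 0.13 (limma adjusted p = 0.0246), and Cebpd differed by 0.63 without passing. C/EBP factors are also myeloid and fat cell genes. Of 12 myeloid and Langerhans cell markers 8 fell and 1 rose, with summed intensities of 8193 to 11434 on Cre and 12382 to 14798 on control arrays. None of 7 adipocyte markers passed on its brightest probe set, though 1 of 3 further probe sets of Fabp4 was called higher. The adipocyte sums were 513 to 3562 on Cre and 1138 to 2063 on control arrays. The part of these myeloid and adipocyte markers in the C/EBP differences was not tested.

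**Figure D2:**
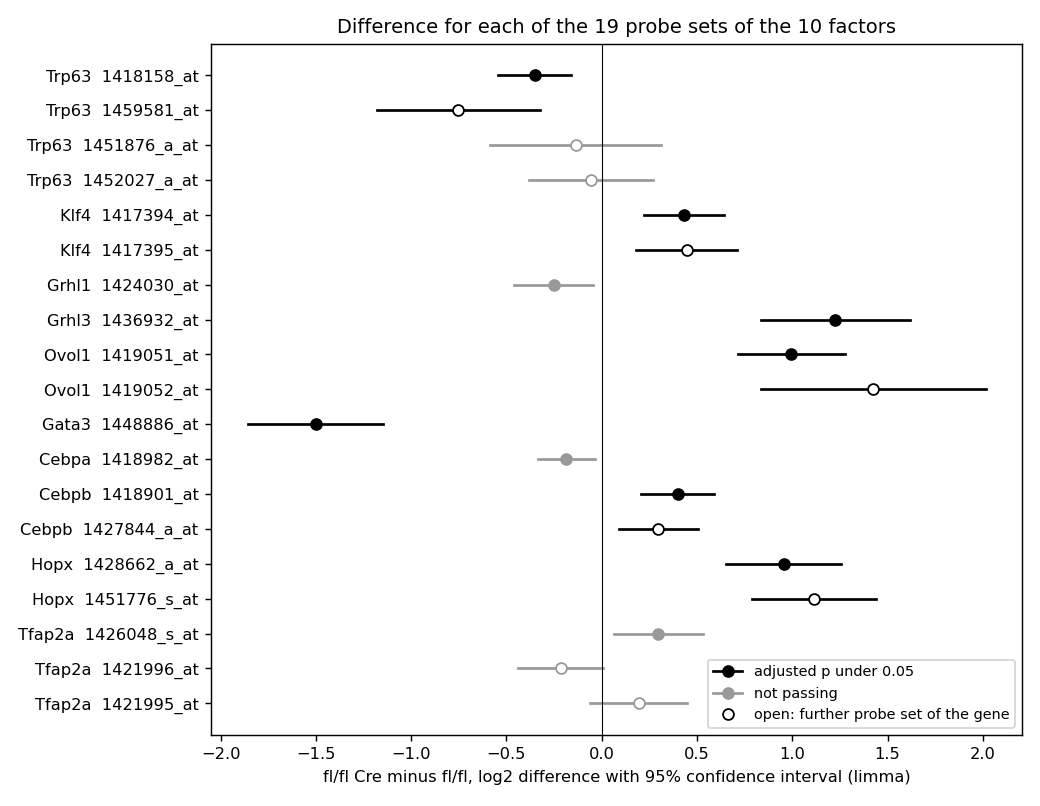
Difference between Cre and control epidermis on the log2 scale for each of the 19 probe sets, with 95% confidence intervals from limma, in black where adjusted p is under 0.05 and open where the probe set is a further one of its gene. Both probe sets of Klf4, Ovol1, Cebpb and Hopx lie right of 0, 2 of 4 Trp63 probe sets pass on the left, and the 3 Tfap2a probe sets fall on both sides of 0.

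Trp63 fell a little where it was read most brightly. Its brightest probe set (1418158_at) read 9.84, 9.87, 10.02, 9.92 and 10.02 in Cre mice, against 10.47, 10.27, 10.09 and 10.31 in controls, and fell by 0.35 ± 0.09 (SE), or 1.28-fold (limma adjusted p = 0.0115). The groups did not overlap, but Cre mouse 5 and control mouse 3 were 0.07 apart, and in males only the adjusted p was 0.0501. A second (1459581_at) fell by 0.75 ± 0.19 (limma adjusted p = 0.0145), with an adjusted p of 0.0502 without control mouse 4, 0.0536 without moderation of the variances and 0.106 in males only. The remaining probe sets lay near 6, at 5.59 to 6.12 and 5.68 to 6.13 in Cre mice and 5.51 to 6.52 and 5.55 to 6.30 in controls, and differed by -0.14 (95% confidence interval -0.59 to 0.31) and -0.06 (-0.38 to 0.27). The Trp63 gene makes several isoforms, and the files do not say which isoform each probe set reads.

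Of 13 measured targets of p63, 3 rose, 5 fell and 5 did not pass. Over all genes 15.5% were higher and 18.9% lower, and among genes as bright as the factors 26.5% and 25.4%. Satb1, a chromatin organiser that p63 activates in mouse epidermis and that T cells also express, fell by 2.73 ± 0.19, or 6.64-fold (limma adjusted p = 6.52e-06). The growth factor receptor Fgfr2 fell by 1.25 ± 0.15 (limma adjusted p = 0.000173) and dystonin (Dst), a hemidesmosome linker, by 1.11 ± 0.10 (limma adjusted p = 2.55e-05). Runx1 fell by 0.73 and Cldn1, a tight junction protein, by 0.32, although another Cldn1 probe set passed in the opposite direction. Krt14 rose by 0.47 ± 0.06 (limma adjusted p = 0.000445), the integrin Itga3 by 0.49 ± 0.09 (limma adjusted p = 0.00233) and Tfap2c by 0.58 ± 0.14 (limma adjusted p = 0.0118). Krt5, Perp, Zfp750, Dlx3 and Itgb4 differed by -0.07, 0.04, 0.28, 0.17 and 0.31 and did not pass.

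Tfap2a gave no common direction. Its brightest probe set (1426048_s_at) read 9.10, 8.89, 9.24, 8.78 and 8.88 in Cre mice, against 8.79, 8.58, 8.57 and 8.79 in controls, a difference of 0.30 (95% confidence interval 0.06 to 0.53; limma adjusted p = 0.0572). It passed in 5 of 22 alternatives, among them quantile normalization and subtraction of array medians (limma adjusted p of 0.0499 and 0.0336). The next (1421996_at) differed by -0.22 (-0.44 to 0.01) and the dimmest (1421995_at) by 0.19 (-0.06 to 0.45), with neither passing, and the groups overlapped on all 3. Its relatives moved more, and not all in the same direction. Tfap2c rose by 0.58 ± 0.14 (limma adjusted p = 0.0118), to 8.45 in Cre epidermis against 7.87 in controls. Tfap2b fell by 1.54 ± 0.24, or 2.90-fold (limma adjusted p = 0.000869), and Tfap2e by 1.78 ± 0.24, or 3.43-fold (limma adjusted p = 0.000352). Both were at moderate levels, 5.48 and 5.34 in Cre epidermis, against 7.02 and 7.12 in controls. Egfr, the growth factor receptor gene that AP-2 alpha controls in mouse epidermis, differed by -0.19 (limma adjusted p = 0.205) on its brightest probe set, while 2 of its other probe sets passed in the opposite direction.

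The GATA family fell in 2 members, Gata3 and Gata6. Gata6, a factor of sebaceous duct and follicle cells, was 5.30 ± 0.13 (SD, n = 5) in Cre and 6.48 ± 0.14 (SD, n = 4) in control epidermis, a fall of 1.18 ± 0.09 (limma adjusted p = 1.46e-05). Gata1, an erythroid factor, was at 4.55 in Cre and 4.25 in control epidermis, higher by 0.30 (limma adjusted p = 0.0466), and Gata2 differed by 0.17 without passing. Trp73, the p53 family relative of Trp63, fell by 0.36 ± 0.12 (limma adjusted p = 0.0427), with overlapping groups. Of the 23 measured paralogs of the 10 factors, 4 rose, 9 fell and 10 did not pass, with a median difference of -0.05.

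Of 33 other transcriptional regulators of epidermis measured, 16 fell, 5 rose and 12 did not pass, beside the 18.9% of all genes that were lower and the 15.5% that were higher, with a median of -0.42 against 0.03 over all genes. Ehf, an epithelial Ets factor, rose by 1.42 ± 0.11, or 2.68-fold (limma adjusted p = 1.17e-05). The glucocorticoid receptor gene Nr3c1 fell by 0.90 ± 0.09 (limma adjusted p = 6.7e-05) and Nfatc1, a factor of follicle stem cells, by 0.97 ± 0.10 (limma adjusted p = 7.76e-05). Nfatc1 had 4 further probe sets, none of which passed. Outside the naming rule and chosen after their values were seen, Vdr, the vitamin D receptor gene, fell by 1.32 ± 0.18, Pou3f1 by 0.92 ± 0.15 and Pou2f3 by 0.82 ± 0.23, while Prdm1, which encodes Blimp1, rose by 0.86 ± 0.11 and Elf3 by 0.97 ± 0.22.

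Genes of the layers in which these factors act did not move as blocks. Beside the counts stand 15.5% of all genes higher and 18.9% lower. Among genes as bright as the factors the shares were 26.5% and 25.4%. Of 12 spinous genes 4 rose and 8 did not pass. The desmocollin Dsc1 rose by 0.64 ± 0.08 and Lypd3 by 0.73 ± 0.08 (limma adjusted p of 0.000174 and 0.000142), and Fabp5 and Calm4 by 0.47 and 0.23, at 13.36 and 13.38 in Cre epidermis, near the top of the array scale. Of 18 granular and cornified layer genes 9 rose, 2 fell and 7 did not pass. Cornifelin (Cnfn) rose by 1.65 ± 0.10 (limma adjusted p = 4.29e-06) and the ceramide synthase gene Cers3 by 1.41 ± 0.10 (limma adjusted p = 9.25e-06). The keratins of upper layers Krt2 and Krt77 went the other way. Krt2 read 2.07 ± 0.20 (SD, n = 5) in Cre and 9.12 ± 1.19 (SD, n = 4) in control epidermis. The Cre level is near the bottom of the array scale, so the size of its fall is not well measured. Krt77 read 5.76 ± 1.63 (SD, n = 5) in Cre and 12.85 ± 0.11 (SD, n = 4) in control epidermis (limma adjusted p of 3.88e-06 and 4.44e-05). Of 12 basal genes 2 rose, 5 fell and 5 did not pass, among them Col7a1 of the anchoring fibrils, which fell by 1.27 ± 0.09 (limma adjusted p = 6.52e-06).

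**Figure D3:**
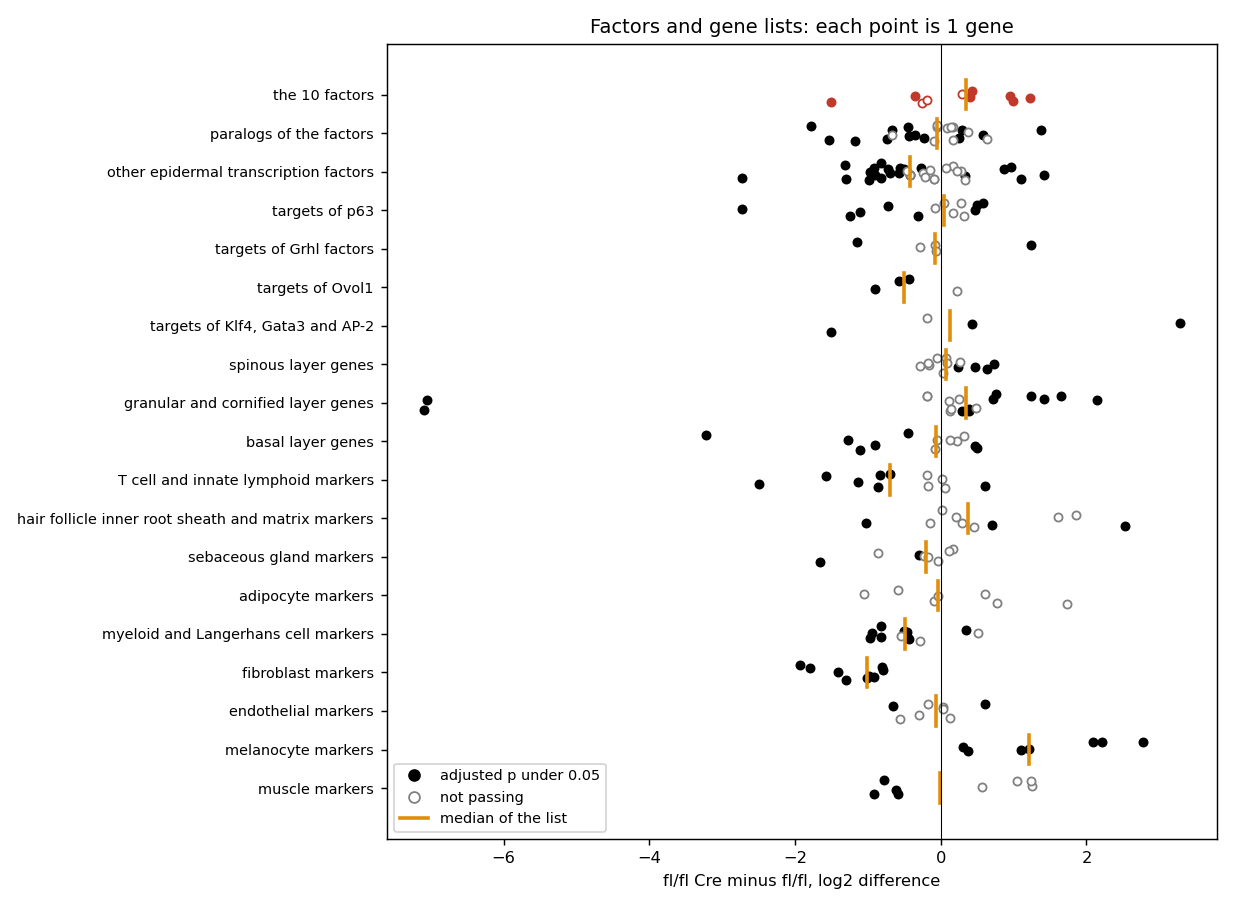
Difference between Cre and control epidermis on the log2 scale for the 10 factors (top, red) and for 18 lists of related genes and cell type markers, 1 point per gene, filled where adjusted p is under 0.05, with the list median in orange. The factors have a median of 0.35, other epidermal transcription factors -0.42, fibroblast markers -1.01 and melanocyte markers 1.21.

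The remaining marker lists, for cells that scratched epidermis can hold, were as follows. All 7 melanocyte markers rose, with a summed intensity of 298 to 625 on Cre and 174 to 183 on control arrays, and Dct rose by 2.78 ± 0.39 (limma adjusted p = 0.000521). Of 8 endothelial markers, relevant because Klf4 and Klf2 are endothelial genes too, 1 rose, 1 fell and 6 did not pass, and sums were 287 to 471 on Cre and 362 to 504 on control arrays. Sebaceous gland markers fell in 2 of 8 and muscle markers in 4 of 8, and none of either list rose. Sebaceous sums were 3928 to 9058 on Cre and 7103 to 8644 on control arrays, and muscle sums 483 to 1584 and 891 to 1077. Their part in the factors' differences was not tested.

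Among Cre mice the factors that rose most were higher in the male mice, 1 and 2, than in the female mice, 3, 4 and 5. Grhl3 lay 1.58 and 1.52 above the control mean in the males and 0.78 to 1.21 in the females, Hopx 1.15 and 1.25 against 0.55 to 0.99, and Ovol1 1.19 and 1.32 against 0.69 to 0.97. Within males (2 Cre, 3 control), the differences of Grhl3, Ovol1 and Hopx were 1.65, 1.26 and 1.27. Within females (3 Cre, 1 control), they were 0.73, 0.83 and 0.59. Gata3 differed by -1.68 within males and -1.38 within females. None of the 19 probe sets passed a test of the difference between the sexes after adjustment. For Grhl3 the male effect exceeded the female by 0.92 ± 0.26 (SE; unadjusted p = 0.00654 and adjusted p = 0.846 in limma's interaction test). Of 19 probe sets, 4 had an unadjusted p under 0.05, those of Grhl3 and Hopx and the dimmer of Ovol1, against 5.51% of all probe sets. The female effect rests on 1 control mouse, which had the highest Grhl3 level of the controls and the highest Hopx level on the brighter probe set.

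**Figure D4:**
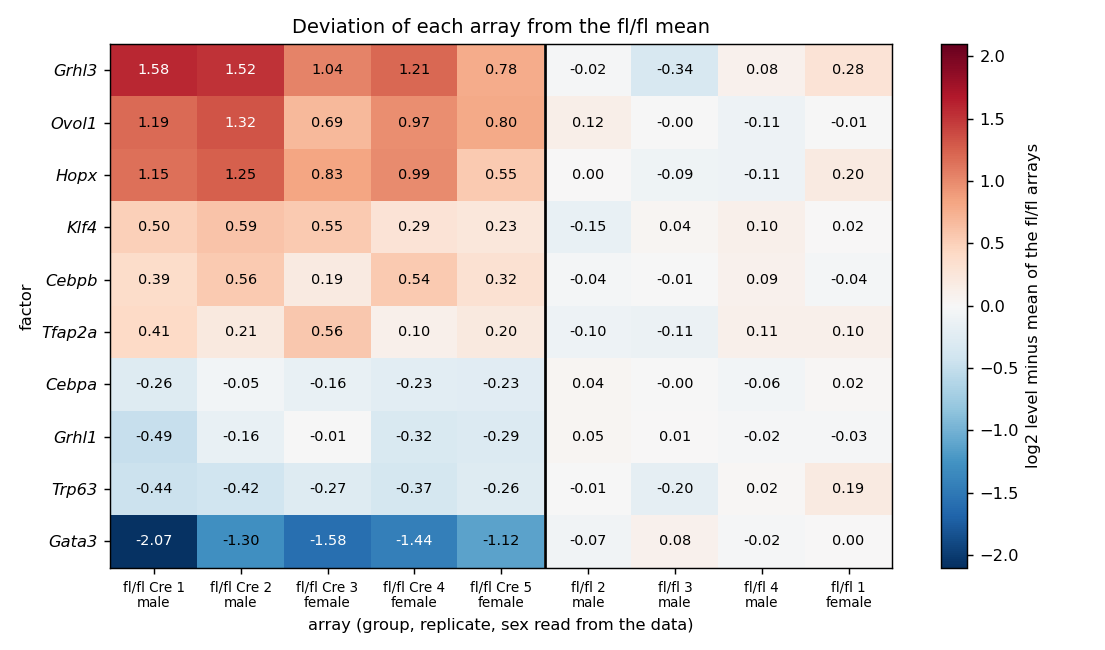
Level of each factor on each array minus the mean of the 4 controls, on the log2 scale, with Cre arrays left and control arrays right and male before female mice within each group. Grhl3, Ovol1 and Hopx are positive and Gata3 negative on all 5 Cre arrays, and Cre mouse 1 has the lowest Gata3, at -2.07.

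The same arrays did not lead in every factor. Cre mouse 1 had the lowest Gata3 and Grhl1, and Cre mouse 5 the lowest Grhl3, Hopx and Klf4 and the highest Gata3 of the Cre group. Cre mouse 3 was lowest for Ovol1 and Cebpb and highest for Tfap2a. Without Cre mouse 5 the factors' differences were larger in Grhl3 and Hopx, at 1.34 and 1.06, and without Cre mouse 1 that of Gata3 was -1.36. The calls of Grhl3, Ovol1, Hopx, Gata3, Klf4, Cebpb and Trp63 at their brightest probe sets held whichever array was left out, with limma adjusted p of at most 0.0347.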

How the data were processed

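The authors deposited 1 table of log2 intensities for 45037 probe sets on 9 Affymetrix arrays, labelled from total RNA of epidermis. The submitters' processing notes name the tool affy; background correction, normalization, summary method and log base are not stated in any source used. The values were read as log2 because array maxima exceed 11.1, the natural log of the largest scanner value. No probe set was filtered out. Differences are understated where a probe set is dim or near saturation.

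Groups were compared with limma 3.58.1 in R 4.3.3 (lmFit, eBayes, two-sided, no covariate, 7 residual degrees of freedom), adjusted by Benjamini-Hochberg over all probe sets. The platform annotation gave 932 probe sets several symbols and left 9160 unnamed. Genes were represented by their brightest probe set over all arrays. Pairs of factors were compared by exact permutation of the arrays. The steps were tested on simulated data.

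The factors, 18 lists (188 of 207 genes measured) and tests were chosen with earlier results of these data known. Named were all factors, all target genes, passing paralogs and up to 4 passing genes of each other list with the lowest adjusted p (2 where none passed); genes that check the tissue or complete a family stand beside them, and not every gene the rule names is printed. Alternatives were other scalings, filters on dim probe sets, priors, array weights, the replicate block, sex, a threshold of 0.01, gene means, removal of shared probe sets and leaving out each array. Same-numbered mice are not paired in the labels.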

Additional observations from a re-analysis of the deposited data

How the results depend on the processing

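Of the 10 factors, 6 to 10 passed in the alternatives over both sexes or in males only, and 7 to 8 when single arrays were left out. Removal of shared probe sets left 9 factors to test, all but Hopx, of which 6 passed. Factor probe sets passing numbered 10 to 13 and listed genes 88 to 108 without single arrays, and all probe sets passing numbered between 9914 and 13312. At an adjusted p of 0.01, 7309 probe sets passed in the whole table. In females only, with 1 control assumed to vary like the other mice, limma called 0 probe sets of the whole table, 0 factor probe sets, 0 factors and 0 listed genes, with 7635, 6, 4 and 68 at an unadjusted p under 0.05; with 1 control this says nothing about stability. This split was chosen after seeing the data. With the replicate block, 7 factors and 11 of their probe sets passed. The block ended the call of 1 factor probe set, the dimmer of Cebpb (limma adjusted p = 0.0808). Same-numbered mice correlated at -0.268 to 0.078 in their deviations, and 0 of 4 controls correlated best with their own number. These values gave no sign of pairing by number. They do not settle it, since same-numbered mice differed in sex for numbers 1, 3 and 4. Signs turned only in probe sets that did not pass: Trp63 1452027_a_at read 0.065 after quantile normalization, 0.026 after cyclic loess and -0.19 to 0.058 without single arrays, Trp63 1451876_a_at -0.31 to 0.031 without single arrays, and Tfap2a 1421995_at -0.0023 in females only. The cause was not tested. Cebpb minus Cebpa ranged from 0.54 to 0.64 and Grhl3 minus Grhl1 from 1.33 to 1.59 without single arrays. The median difference over all probe sets was 0.03 as deposited and 0.07 with array medians subtracted. The dimmest probe sets are near background, where differences are understated.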
